A study of Arabidopsis thaliana with 6 samples.

Results

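SKI2 (AT3G46960) is the RNA helicase of the SKI complex, which in the cytoplasm threads messenger RNA into the exosome for degradation from the 3′ end. EIN5, also called XRN4, removes decapped RNA from the 5′ end, and RDR6 copies RNA into the double-stranded form from which small interfering RNAs are made. Plants carrying the ski2-3 allele were compared here with the wild-type accession Col-0, gene by gene. The comparison used the read counts of 1 ski2-3 library and 1 Col-0 library, which are 2 of the 6 libraries of the series, and covered the 33323 nuclear genes of the deposited table. The other genotypes, also with 1 library each, were ein5-1, ein5-1 ski2-3, rdr6-11 and the triple mutant rdr6-11 ein5-1 ski2-3. All plants were 18 days old and were kept at 22 °C, in days of 16 h light and 8 h darkness. RNA came from aerial tissue and was depleted of ribosomal RNA (rRNA). The alleles are borne by the whole plant, so no cell type is singled out by the genotype.

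There were no replicates, so every difference below compares libraries and has no replicate check, no p-value and no standard error. Ratios are on the log2 scale after scaling of the libraries (trimmed mean of M-values), and each bracketed range is an exact 95% interval that covers counting error only. A gene was measured if it had at least 100 reads in Col-0 or in ski2-3, and it was called higher or lower if the ratio was at least 2-fold. Levels are in scaled RPM, reads per 1000000 of the scaled library size. They are not divided by gene length and are compared only between libraries.

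SKI2 itself was read first, as a check of the labels. Its level was 29.7 scaled RPM in Col-0, 30.7 in ein5-1 and 28.9 in rdr6-11, against 18.9 in ski2-3, 23.0 in ein5-1 ski2-3 and 17.3 in the triple mutant. The 3 libraries carrying ski2-3 were thus the 3 lowest, and the ratio of ski2-3 to Col-0 was -0.65 (-0.92 to -0.38). SKI2 transcript was lower but still present in ski2-3, and counts per gene do not show where in the transcript the reads lay.

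The libraries differed beyond genotype. Nuclear genes held 10942840 reads in Col-0 and 10968619 in ski2-3. Among nuclear reads, the rRNA share was 19.2% in Col-0 and between 0.335% (ski2-3) and 2.71% in the 5 mutants, and chloroplast genes took 44.4% of all reads in Col-0 and 53.9% in ski2-3. The part that remaining rRNA played in the results was not tested. Among genes with 1 to 20 reads, even counts made up 81.9% in rdr6-11 and 81.5% in the triple mutant, against 38.4% to 41.5% in the other libraries, so counts that rest on rdr6-11 are also given without it.

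Of the nuclear genes, 12520 were measured. In ski2-3, 304 of these were at least 2-fold higher than in Col-0 (2.43%) and 146 were at least 2-fold lower (1.17%), so that 3.59% were called different. The median ratio of all measured genes was 0.06. The split between higher and lower genes depended on the scaling: it was 535 to 90 with total nuclear counts, which move the median of all genes to 0.22, and 179 to 233 when rRNA reads were left out of those totals, which moves it to -0.09. It was 203 to 205 with organelle reads included (median -0.05) and 201 to 210 with the authors' RPKM values (median -0.05). Ratios of gene groups are therefore given beside the median of all genes. In whole tissue, fewer cells of a type and less RNA per cell cannot be told apart.

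**Figure D1:**
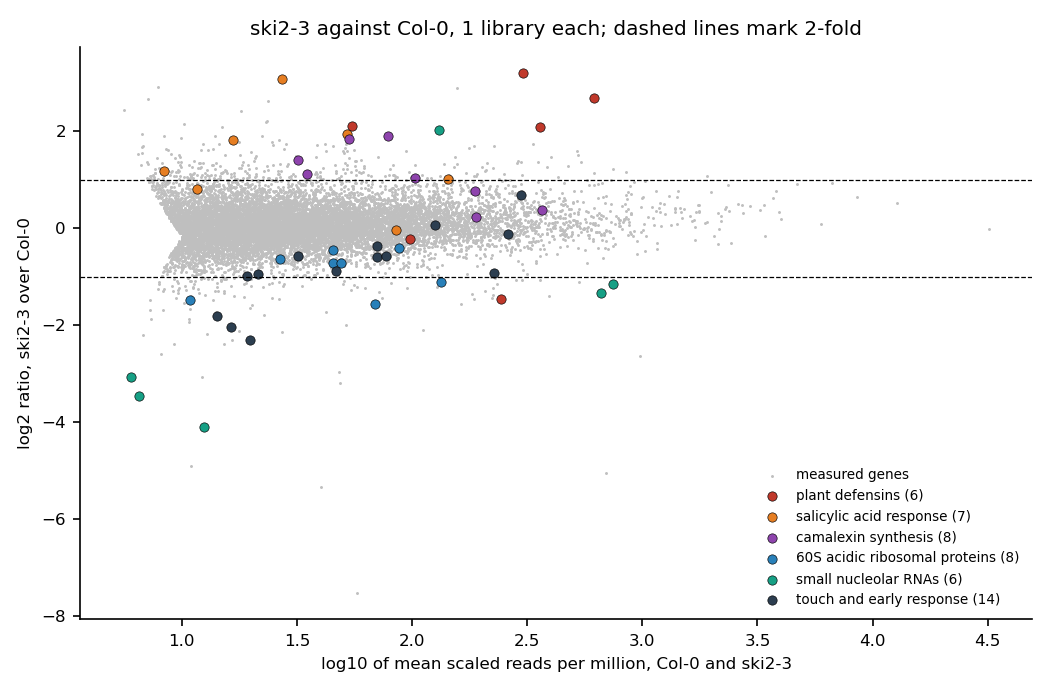
Each grey point is 1 of the 12520 measured genes, with the log10 of its mean scaled RPM in Col-0 and ski2-3 on the x axis and its log2 ratio of ski2-3 to Col-0 on the y axis. Dashed lines mark 2-fold. Coloured points are members of 6 gene groups: 4 plant defensins and 5 salicylic acid response genes lie above the upper line, and 5 of 6 small nucleolar RNAs lie below the lower one. The small nucleolar RNAs and the 60S acidic ribosomal proteins were chosen after their values were seen.

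Of the 15 genes with the highest ratios in ski2-3, 13 encode proteins. They include 4 defensins, the salicylic acid marker PR1, a chitinase, a PR1-like protein and a peroxidase. The others are the potassium transporter HAK5, the beta-amylase BAM5, the abscisic acid receptor PYL6, the methyl esterase MES18 and AT4G12490, a protein of the lipid-transfer superfamily, beside the noncoding RNAs AT3G12502 and U12. In the other direction, 5 of the 15 lowest genes are noncoding RNAs, 2 are pseudogenes, 5 are uncharacterised protein-coding genes and 1 has no entry in the TAIR10.1 gene table.

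Plant defensins are small antifungal proteins, and those of the PDF1 class are known as markers of the joint response to ethylene and jasmonate. The level of PDF1.3 (AT2G26010) was 546 scaled RPM in ski2-3, against 59.3 in Col-0, 7.63 in ein5-1, 1.00 in ein5-1 ski2-3, 0.766 in rdr6-11 and 21.8 in the triple mutant. The ski2-3 library was the highest of the 6 by a wide margin, and the ratio to Col-0 was 3.20 (3.08 to 3.33), a 9.21-fold difference. PDF1.2 (AT5G44420) had 11258 reads in ski2-3 and 1567 in Col-0, with 617 in ein5-1, 199 in ein5-1 ski2-3, 13 in rdr6-11 and 1832 in the triple mutant. Its ratio to Col-0 was 2.68 (2.60 to 2.76). For PDF1.2b (AT2G26020) and PDF1.2c (AT5G44430) the ratios were 2.11 and 2.08. These 4 genes are close copies, so how the authors' counting divided reads among them is uncertain, though all 4 were called higher. The defensins were not uniform. PDF2.2 (AT2G02100), of another class, was called lower, with 1362 reads in ski2-3 against 3355 in Col-0 (-1.46, -1.56 to -1.37), and PDF2.3 stood at -0.23. Over the 6 measured members of the list, 4 were higher and 1 lower, with a median of 2.1. The 9 measured genes whose symbol begins with PDF, which take in peptide deformylases and other unrelated proteins, had 4 higher and a median of 0.40.

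Other genes regulated by ethylene and jasmonate in defence were higher as well. HCHIB (AT3G12500), a basic chitinase also called PR3, had a level of 59.4 in ski2-3 against 18.0 in Col-0, 8.88 in ein5-1 and 6.28 in rdr6-11, and its ratio to Col-0 was 1.72 (1.48 to 1.98). HEL, the chitin-binding protein PR4, had 6229 reads in ski2-3 and 2002 in Col-0 (1.47). The transcription factor ORA59, which activates PDF1.2, was within 2-fold at 0.29 (-0.08 to 0.67), and ERF2 stood at 0.07. The noncoding RNA AT3G12502, which overlaps HCHIB in the TAIR10.1 gene table, had 176 reads in ski2-3 and 35 in Col-0 (2.15). Since use of strand in counting is not given in the sources used here, reads of neighbours that overlap cannot be told apart.

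Salicylic acid is the hormone of defence against pathogens that feed on living tissue. Its response genes were higher in 5 of 7 measured cases, with a median of 1.17 beside 0.06 for all genes. PR1 (AT2G14610) had levels of 48.6 in ski2-3 and 5.75 in Col-0, with 22.1 in ein5-1, 16.7 in ein5-1 ski2-3, 20.7 in rdr6-11 and 61.7 in the triple mutant. Col-0 was the lowest of the 6 libraries for PR1, and ski2-3 was exceeded by the triple mutant. The ratio to Col-0 was 3.07 (2.67 to 3.51). PR2, a beta-1,3-glucanase, stood at 1.94, the thaumatin-like PR5 at 1.82, AIG1 at 1.17 and ACD6, an ankyrin protein that promotes salicylic acid signalling, at 1.01. WRKY70 stood at -0.04. Upstream of these markers the differences were smaller. Among 11 measured genes of salicylic acid synthesis and signalling only UGT76B1, a glycosyltransferase that conjugates an immune-modulating acid, was called higher (1.23), and the median was 0.65. PBS3 stood at 0.91, EDS5, the transporter for the precursor of the hormone, at 0.65, and the receptor NPR1 at 0.26.

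Camalexin is the indolic antimicrobial compound of Arabidopsis, made from tryptophan. The list read here covers camalexin and other defence compounds derived from tryptophan, so not every member acts in camalexin synthesis. All 8 measured genes of the list lay above the median of all genes, and 5 were called higher (list median 1.08). CYP71A13 (AT2G30770), which makes indole-3-acetonitrile on the way to camalexin, had a level of 83.2 in ski2-3, against 23.1 in Col-0, 14.8 in ein5-1, 3.63 in ein5-1 ski2-3, 1.07 in rdr6-11 and 1.07 in the triple mutant. The ski2-3 library was the highest, with Col-0 next and the 2 rdr6-11 libraries lowest, and the ratio to Col-0 was 1.85 (1.63 to 2.07). Its close relative CYP71A12 stood at 1.90, CYP82C2 at 1.41, FOX1 at 1.12 and PAD3, the last enzyme of camalexin synthesis, at 1.03. CYP79B2 and CYP79B3, which supply indole-3-acetaldoxime, were within 2-fold at 0.77 and 0.22. NAC042, a transcription factor known to promote camalexin synthesis, was higher with 113 reads against 26 (1.94). In glucosinolate synthesis and breakdown, the neighbouring branch, CYP81F2 alone of 22 measured genes was called higher (1.25), and the median was 0.26.

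**Figure D2:**
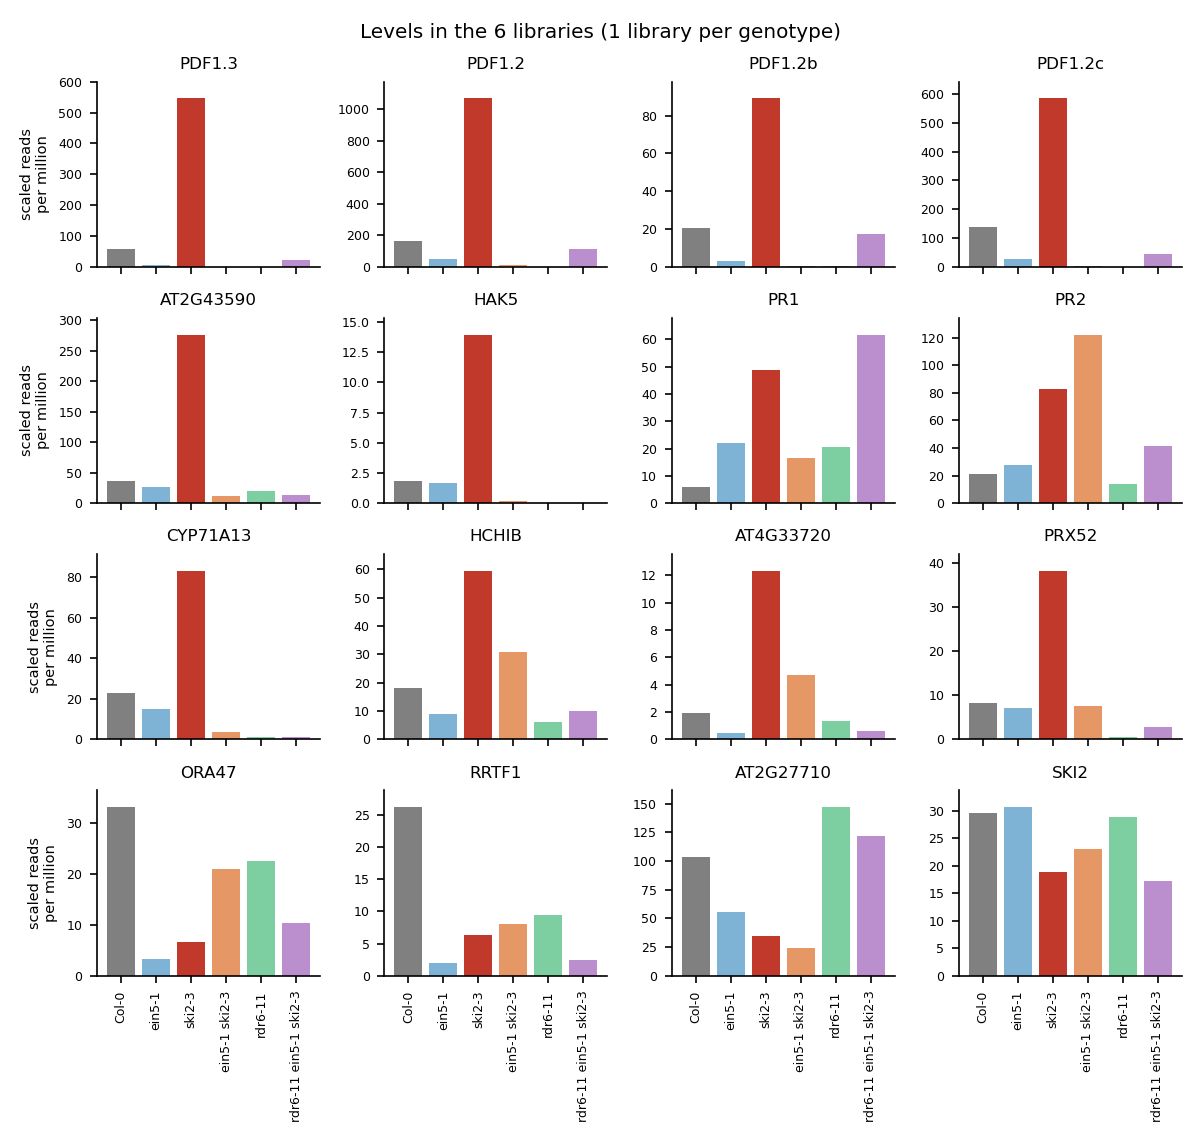
Bars give the level of 16 genes in scaled RPM on the y axis, from 0 and with a scale of its own in each panel, in the 6 libraries along the x axis. PDF1.3 reached 546 in ski2-3 and at most 59.3 elsewhere, while PR1 was highest in the triple mutant at 61.7 and the early response gene ORA47 was highest in Col-0 at 33.1.

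Receptors at the cell surface were shifted upward from Col-0 by smaller amounts. FRK1, a receptor-like kinase induced by bacterial flagellin, had 106 reads in ski2-3 and 32 in Col-0 (1.55, 0.98 to 2.18). The wall-associated kinases WAK1, WAK2 and WAK3, which bind pectin, stood at 1.1, 1.1 and 1.09, and they were the 3 called genes among 6 in their family (median 0.97). Among the immune receptors and early signalling genes, 3 of 13 were called higher, and the flagellin receptor FLS2 stood at 0.59. Receptor-like proteins were higher in 5 of 21 cases (median 0.58), with RLP34 and RLP49 both at 1.31. Cysteine-rich receptor kinases were higher in 3 of 15 (median 0.57), led by CRK4 at 1.35. None of these 3 families had a member called lower. Only 1.17% of all measured genes were, so families of this size would hold few or none anyway. Against ein5-1 the median of wall-associated kinases was 0.81, of receptor-like proteins 0.24 and of cysteine-rich receptor kinases 0.18. Against rdr6-11 these medians were 1.59, 0.54 and 0.03. The immune receptors and early signalling genes had medians of 0.55 over Col-0, 0.17 over ein5-1 and 0.56 over rdr6-11. Upward shifts of these groups were thus smaller against ein5-1 than against Col-0. WRKY transcription factors, which act in defence and senescence, were higher in 2 of 26 cases (WRKY69 at 1.06 and WRKY6 at 1.03) around a median of 0.49, and WRKY40 stood apart at -0.89.

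Several groups of cell wall and secreted proteins were picked after their values were seen, from the gene descriptions, and are given as description only. Of 23 peroxidase superfamily proteins, 11 were called higher and none lower, with a median of 0.99. PRX52 (AT5G05340) had a level of 38.2 in ski2-3, 8.30 in Col-0, 7.13 in ein5-1, 7.53 in ein5-1 ski2-3, 0.460 in rdr6-11 and 2.78 in the triple mutant, so that ski2-3 was well above the other 5. Prx37 stood at 1.64. Arabinogalactan proteins, heavily glycosylated proteins of the cell surface, were higher in 6 of 26 cases (median 0.78), with AGP4 at 1.91 and AGP18 at 1.44. Of 26 pectin methylesterases and their inhibitors, 5 were higher (median 0.56), among them AT2G45220 with 855 reads against 217 (1.81). Berberine bridge enzyme-like oxidases were higher in 5 of 13 (median 0.87) and chitinases in 4 of 9 (median 0.80). The chitinase AT2G43590 had 2911 reads in ski2-3 and 347 in Col-0, with 329 in ein5-1, 214 in ein5-1 ski2-3, 266 in rdr6-11 and 224 in the triple mutant. Its ratio to Col-0 was 2.90 (2.74 to 3.07), and all 5 other libraries were far below ski2-3. The wall proteins EXT3 and EXT4 were the 2 called among 15 extensins, at 1.69 and 1.73, while the median of that group was 0.07, with a sign that depends on the scaling.

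**Figure D3:**
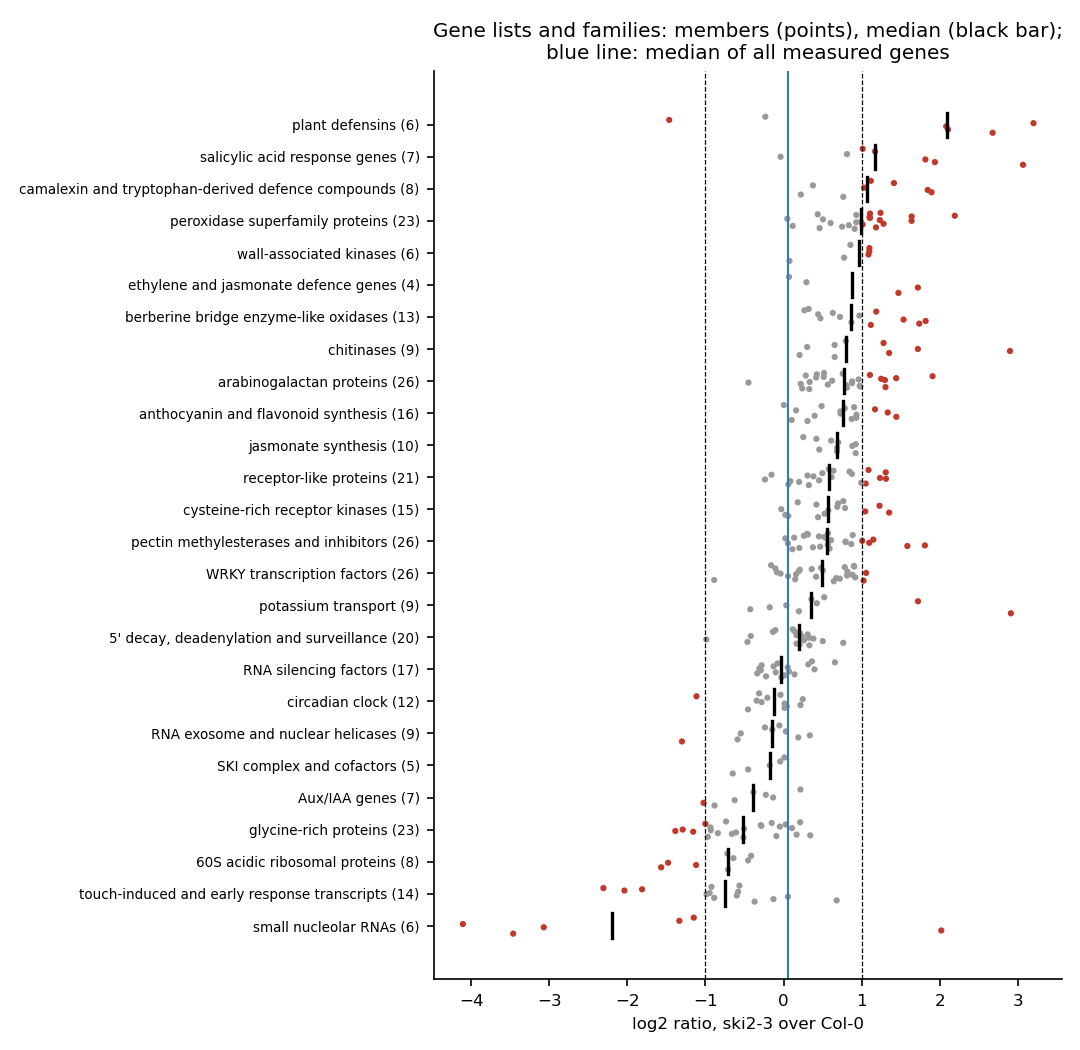
Points are the measured members of 26 gene lists and families (number in parentheses), placed by log2 ratio of ski2-3 to Col-0 on the x axis, and red where the ratio was at least 2-fold. Black bars are list medians and the blue line is the median of all genes, 0.06. Defence lists lie to the right, up to a median of 2.1 for the list of 6 plant defensins, and the early response transcripts and small nucleolar RNAs lie to the left at -0.74 and -2.20. The small nucleolar RNAs shown are the 6 of 71 that passed the read minimum, some of them only through Col-0.

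Jasmonate synthesis showed a different form of difference, small in size and shared by the members. None of its 10 genes was called, yet all 10 lay above the median of all genes, between 0.25 and 0.93, with a list median of 0.69. LOX2 (AT3G45140), the chloroplast lipoxygenase that opens the pathway, had 91548 reads in ski2-3 and 43024 in Col-0, with a ratio of 0.92 (0.91 to 0.94). AOC2 stood at 0.93, AOS at 0.69 and OPR3 at 0.42. Of 19 genes of jasmonate perception and response, 3 were called higher, namely CORI3 (1.26), the vegetative storage protein gene VSP1 (1.23) and CYP94B3, an enzyme that inactivates the active hormone (1.00). The JAZ repressors had a median of 0.28, and the regulator MYC2 stood at -0.23 and the receptor COI1 at -0.16.

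Anthocyanin and flavonoid genes lay above the median of all genes in 15 of 16 cases, with 3 called higher and a median of 0.76. The called genes were the flavonoid hydroxylase TT7 (1.45), UF3GT (1.34) and AT5MAT (1.17). Chalcone synthase CHS had 1571 reads in ski2-3 and 764 in Col-0 (0.87). Among senescence genes, 2 of 11 were higher, SAG13 (1.38) and WRKY6, with a median of 0.37. Phi glutathione transferases were higher in 2 of 8 cases, GSTF2 (1.28) and GSTF7 (1.19). Cytochromes P450 of the CYP71 family were higher in 3 of 23 cases and the other cytochromes P450 in 6 of 64, with medians of 0.48 and 0.36. UGT glycosyltransferases were higher in 3 of 29 (median 0.50). None of these 4 lists of enzymes held a gene called lower, a call made for only 1.17% of all measured genes. Lists of this size would hold few such genes in any case.

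SKI2 is described in the RefSeq annotation as acting in the response to potassium deprivation, and potassium transport was listed for that reason. HAK5 (AT4G13420), the high-affinity potassium uptake transporter, had 147 reads in ski2-3 and 17 in Col-0, with 20 in ein5-1, 3 in ein5-1 ski2-3 and 0 in both rdr6-11 libraries. The ratio to Col-0 was 2.91 (2.22 to 3.77), a wide interval that reflects the low counts. CHX17, a cation/proton exchanger, had 401 reads against 108 (1.72). The other 7 measured genes were within 2-fold: the channel AKT1 stood at 0.20, its kinase CIPK23 at 0.43, and the phloem channel AKT2 at -0.43. The list median was 0.36. In starch metabolism 2 of 17 genes were called higher, BAM5 with 431 reads against 62 (2.62) and the plastid glucose-6-phosphate transporter GPT2 with 120 against 50 (1.09), and the median was 0.15. NRT1.8, which retrieves nitrate from the xylem, was the called member of 7 NPF and NRT transporters (1.73). None of the 15 nitrate assimilation genes was called (median 0.22), and none of the 9 sugar transport genes was (median 0.36). Cuticular wax genes included 1 called of 13, CER1 (1.08), with CUT1 just under 2-fold at 1.00.

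Genes lower in ski2-3 formed fewer coherent groups. Touch-induced and early response transcripts, which accumulate within minutes of handling or wounding and turn over rapidly, had a median of -0.74, with 3 of 14 called lower and none higher. ORA47 (AT1G74930), a regulator of jasmonate synthesis, had a level of 6.64 in ski2-3 against 33.1 in Col-0, 3.23 in ein5-1, 20.9 in ein5-1 ski2-3, 22.5 in rdr6-11 and 10.3 in the triple mutant. Col-0 was the highest library and ein5-1 the lowest, with ski2-3 between them. The ratio of ski2-3 to Col-0 was -2.31 (-2.71 to -1.94). RRTF1 and ERF13, both ethylene response factors, stood at -2.04 and -1.81 and were likewise lowest in ein5-1 and highest in Col-0 among the libraries with wild-type SKI2. ZAT12, ERF5 and SZF1 were just within 2-fold at -0.99, -0.95 and -0.92, whereas TCH3, a calmodulin-like touch gene, stood at 0.68. Collection times of the plants are not given in the labels.

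Ribosomal protein genes, a group chosen after its values were seen, were called lower in 17 of 279 cases and higher in none, with a median of -0.15. Only 73 of the 279 lay above the median of all genes. With total nuclear counts as the scaling their median was 0.01, so its sign depends on the scaling. The 8 measured 60S acidic ribosomal proteins, which form the stalk of the large subunit, all lay below the median of all genes, with 3 called lower and a group median of -0.72. AT2G27710 had a level of 34.9 in ski2-3 against 104 in Col-0, 55.7 in ein5-1, 23.8 in ein5-1 ski2-3, 147 in rdr6-11 and 122 in the triple mutant, and a ratio of -1.57 (-1.75 to -1.39). The ein5-1 ski2-3 library was below ski2-3, and both rdr6-11 libraries were above Col-0. Many ribosomal protein genes have close copies, so the division of reads among copies is uncertain. Of other genes called lower, the mitochondrial respiratory chain genes AT2G47380, AT2G02050 and AT5G05370, which encode subunits of cytochrome c oxidase, NADH-ubiquinone oxidoreductase and the cytochrome b-c1 complex, stood at -1.78, -1.74 and -1.73. These 3 genes were chosen after their values were seen. Glycine-rich proteins were lower in 4 of 23 cases (median -0.51), and cyclins in 3 of 41 (median -0.15, or 0.01 with total nuclear counts). Both groups, and the 60S acidic ribosomal proteins, were likewise chosen after their values were seen. Aux/IAA auxin repressors were lower in 1 of 7, IAA8 at -1.02, and 6 of the 7 lay below the median of all genes.

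**Figure D4:**
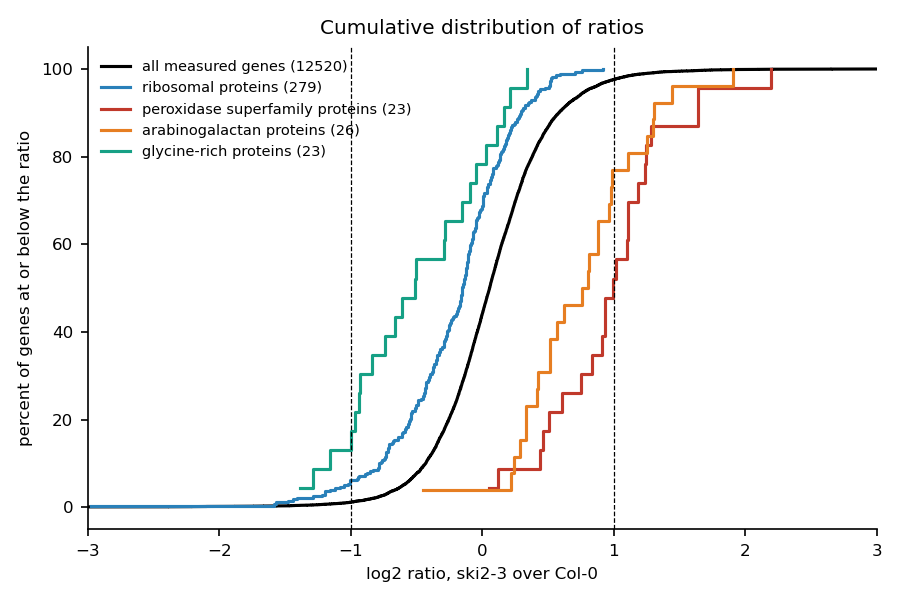
Lines give the percent of genes, on the y axis, with a log2 ratio of ski2-3 to Col-0 at or below the value on the x axis, for all 12520 measured genes and 4 groups chosen after their values were seen. Peroxidase superfamily and arabinogalactan proteins lie to the right of all genes (medians 0.99 and 0.78), and ribosomal and glycine-rich proteins to the left (-0.15 and -0.51).

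Noncoding RNAs and uncharacterised genes made up most of the lowest ratios. The lowest of all belonged to AT2G35208, the gene with no entry in the TAIR10.1 gene table, which had 6 reads in ski2-3 and 1077 in Col-0, with 29 in ein5-1, 48 in ein5-1 ski2-3, 456 in rdr6-11 and 329 in the triple mutant (ratio -7.53, -9.10 to -6.53). For the small nucleolar RNA gene AT4G39363 the counts were 14 in ski2-3, 223 in Col-0, 7 in ein5-1, 17 in ein5-1 ski2-3, 406 in rdr6-11 and 283 in the triple mutant. The low libraries were ski2-3, ein5-1 and ein5-1 ski2-3 for both genes. Spliceosomal U2 RNA genes were lower in 5 of 6 measured copies, from -1.01 for U2.3 to -1.47 for U2.6, with U2.2 at -0.52. These copies are close to identical. U12, of the minor spliceosome, went the other way with 256 reads against 53 (2.1), as did the small nucleolar RNA SNOR105 (2.02). Col-0 was the lowest library for SNOR105, with 488 reads against 2223 in ski2-3, 1494 in ein5-1 and 3485 in rdr6-11. Over the 9 measured small nuclear RNAs, a group chosen after its values were seen, the median ratio to Col-0 was -1.01 in ski2-3. It was -0.92 in ein5-1, -1.62 in ein5-1 ski2-3, 0.11 in rdr6-11 and -0.26 in the triple mutant. Of the 15 lowest genes, 14 have a place in the TAIR10.1 gene table, and in 6 of these an adjacent gene is a small nucleolar RNA or rRNA gene. AT2G01021, with 12718 reads in Col-0 and 429 in ski2-3, is next to an rRNA gene, whose own reads were far fewer in ski2-3, as given above.

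The share of genes called fell with gene length, as implied by the ratio of counts to RPKM in the authors' deposited table. Among 49 measured genes under 500 bases, 24.5% were lower and 14.3% higher. From 1000 to 2000 bases the shares were 2.14% and 4.32% of 3033 genes, and above 4000 bases they were 0.307% and 0.922% of 2602 genes. The medians differed little, from 0.02 above 4000 bases to 0.13 between 500 and 1000. Longer genes also collect more reads, so length and counting error cannot be told apart here.

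RNA decay factors themselves were mostly within 2-fold. The SKI complex partner SKI3 stood at -0.45, VIP3, the SKI8 subunit, at -0.18, and the bridging factors RST1 and HBS1 at 0.01 and -0.04. The exosome subunit RRP4 was called lower with 87 reads against 192 (-1.30, -1.69 to -0.93). The nucleases RRP44A and SOV stood at 0.19 and 0.34 and the nuclear helicases MTR4 and HEN2 at -0.05 and -0.24. None of 20 factors of 5′ decay, deadenylation and surveillance was called (median 0.20). EIN5 stood at 0.33, the decapping activator DCP1 at 0.77 and LSM1A, with 98 reads against 174, at -0.99. No RNA silencing factor of 17 was called (median -0.03); RDR6 stood at -0.10, AGO1 at -0.29 and the uridylyl transferases HESO1 and URT1 at 0.66 and 0.36.

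Transcripts that small RNAs cleave were examined because decay from the 3′ end removes the 5′ fragments of cleavage. Of 50 measured miRNA targets, 2 were called higher and none lower, with a median of 0.25 beside 0.06 for all genes. The called genes were the laccases LAC3 (1.91) and LAC4 (1.05), targets of miR397 and miR408. For LAC3, Col-0 was the lowest of the 6 libraries. It had 55 reads in Col-0, 233 in ski2-3 and 219 in ein5-1, with 177 in ein5-1 ski2-3, 218 in rdr6-11 and 302 in the triple mutant. The 5 HD-ZIP III genes targeted by miR165 and miR166, which set leaf polarity, were within 2-fold, and all 5 lay below the median of all genes, from REV at -0.84 to HB8 at -0.32. Over all 50 targets, 34 lay above it. Of the tasiRNA precursors, TAS2 was called lower with 66 reads against 135 (-1.19) and TAS1A and TAS1C stood at -0.30 and 0.15. Their targets ARF2, ARF3 and ARF4 stood between 0.07 and 0.10, and no member of the SMXL family of 8 was called (median 0.24).

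Other lists showed little. No gene was called among 10 of ethylene perception and signalling (median 0.02), 11 of cold, drought and abscisic acid response (-0.09), 3 of heat shock (0.26) or 3 of phosphate starvation (-0.05), and the medians of all these lists but heat shock change sign with the scaling. In the circadian clock CCR2 (AT2G21660), a glycine-rich RNA-binding protein, was the only called gene of 12, with 3547 reads against 6857 (-1.12). ELF4, FKF1 and the other evening genes stood within 2-fold, between -0.34 for ELF4 and 0.25 for LUX.

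Markers of cell types were read to check the tissue. Leaf mesophyll markers were abundant in both libraries, with a summed level of 8424 in Col-0, 12871 in ski2-3 and between 5222 and 21441 in the other 4. RBCS1A, LHCB1.1 and CA1 stood at 0.64, 0.33 and 0.71, none past 2-fold. The 2 phloem markers stood at 0.15 and 0.32 (summed level 191 in Col-0 and 236 in ski2-3), and the guard cell lineage factor FAMA at 0.47 (lineage sum 43.7 and 59.3, with SPCH and MUTE under 100 reads). GL2, which specifies trichomes, was called higher with 547 reads against 223 (1.13, 0.90 to 1.36). None of 2 meristem, 6 flower or 3 seed markers was measured. WUS had 0 reads in both libraries, the summed level of the seed markers was 0.532 in Col-0 and 0.0949 in ski2-3, and that of the flower markers 4.89 and 5.13. Of 3 root markers SCR, which leaves also express, stood at 0.00, COBL9 had 4 and 3 reads and RHD6 had none. The part of cell type composition in the results was not tested.

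Because Col-0 is 1 library, ski2-3 was also set against each of the 3 libraries with wild-type SKI2. In all, 108 of the 13985 genes with at least 100 reads in ski2-3 or any of these 3 were at least 2-fold higher in ski2-3 than in Col-0, in ein5-1 and in rdr6-11 (0.772%), or 127 when rdr6-11 was left out. Only 7 were at least 2-fold lower than in each (0.0501%). Without rdr6-11 the count was also 7, but the genes were partly others. SNOR77, ARR15 and NUDT12 reached 100 reads only in rdr6-11 and drop out without it. Both counts depended on the scaling: they were 74 and 27 with organelle reads included, and 137 and 11 with total nuclear counts. The 108 include 12 of the 15 highest genes, 4 defensins, all 5 called genes of the camalexin list, 6 peroxidase superfamily proteins and 4 berberine bridge enzyme-like oxidases. All 3 ratios share the 1 ski2-3 library, and these genes were named because they were high in it. The comparison therefore cannot show whether that library is typical of its genotype. By the distance to the nearest of the 3 libraries PDF1.3 led (3.20), followed by HAK5 (2.91), AT2G43590 (2.90), PDF1.2 (2.68) and AT4G33720, a PR1-like secreted protein (2.66). PRX52 (2.19), AT3G12502 (2.15), PDF1.2b (2.11), PDF1.2c (2.08) and NAC042 (1.94) made up the first 10. PYL6, MES18 and U12 were the highest genes that failed, being about as high in ein5-1 or higher: PYL6, an abscisic acid receptor, had 100 reads in ski2-3, 16 in Col-0 and 167 in ein5-1.

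The 7 genes lower than in each of the 3 libraries include SNOR77, AT2G35208 and AT2G01021. SNOR77 had 1 read in ski2-3 against 44 in Col-0, 7 in ein5-1 and 246 in rdr6-11. The other 4 of the 7 genes encode proteins. ARR15, a type-A response regulator that damps cytokinin signalling, had 8 reads in ski2-3 against 19, 51 and 101 in Col-0, ein5-1 and rdr6-11, and 7 in ein5-1 ski2-3 and 155 in the triple mutant. The SAUR gene AT1G75580, of an auxin-induced family, had 16 reads against 48, 117 and 42. NUDT12 and AT5G53900 lay just past 2-fold, at -1.02 and -1.01 from the nearest library. Of the 7 genes, 2 had 100 reads in ski2-3 or Col-0. The other 5 passed the read minimum only through ein5-1 or rdr6-11, libraries in which they are higher, so their place here follows in part from that minimum. RR5 (AT3G48100), also called ARR5 and of the same class as ARR15, was called lower than Col-0 (-1.09) and stood at -0.98 against ein5-1.

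Loss of SKI2 could be read again without EIN5, as ein5-1 ski2-3 against ein5-1, a pair that shares no library with ski2-3 and Col-0. Of the 15084 genes with at least 100 reads in that pair, 6.81% were at or past 2-fold on the higher side and 5.56% on the lower side. Over the 12520 genes measured in ski2-3 and Col-0 the shares were 4.14% and 6.69%. Of the 304 genes higher in ski2-3, 35 were higher there (11.5%) and 50 were lower (16.4%). Of the 146 lower genes, 16 were higher (11.0%) and 26 lower (17.81%). Both directions were thus more frequent among the called genes than among the 12520. In both called sets, as among the 12520, more were lower than higher. Among the 15084 genes more were higher than lower.

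**Figure D5:**
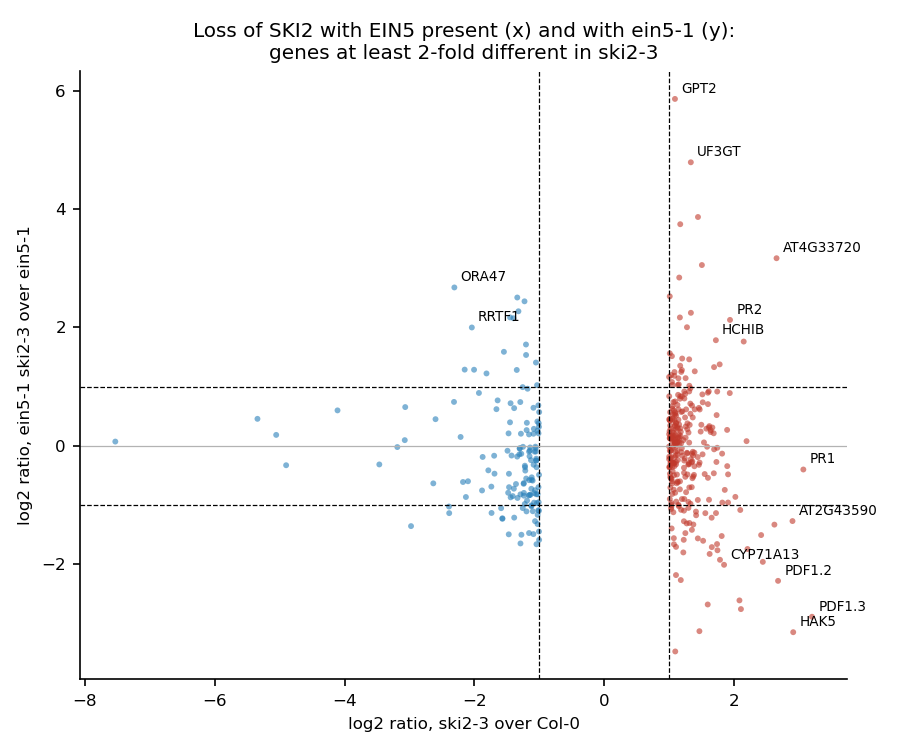
Points are the 450 genes at least 2-fold different in ski2-3, with the log2 ratio of ski2-3 to Col-0 on the x axis and that of ein5-1 ski2-3 to ein5-1 on the y axis. Dashed lines mark 2-fold. PDF1.3, at 3.20 on the x axis, lies at -2.89 on the y axis, and AT4G33720, at 2.66, lies at 3.17. Both genes had under 100 reads in each library of the pair on the y axis.

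The defence genes divided between the backgrounds. All 4 defensins called higher in ski2-3 were lower in ein5-1 ski2-3 than in ein5-1, at -2.89 for PDF1.3, -2.28 for PDF1.2, -2.76 for PDF1.2b and -2.61 for PDF1.2c. Of the 8 genes of the camalexin list, 3 were lower there, CYP71A13 (-2.01), CYP82C2 (-1.11) and PAD3 (-1.07). CYP79B2 was higher (1.04), CYP71A12 (-0.34) and FOX1 (-0.64) were within 2-fold, and the list median was -0.49. HAK5, with 3 reads against 20, stood at -3.15 (-5.79 to -1.64). In contrast, PR2 (2.13), HCHIB (1.78) and AT4G33720 (3.17, with 90 reads against 6) were higher in both pairs, and PR1 stood at -0.40. Of the 16 anthocyanin genes, 11 were called higher in the ein5-1 background with a median of 3.13, against 3 and a median of 0.76 in ski2-3. Jasmonate synthesis had a median of 0.07 in the ein5-1 background and none of its 10 genes called. Touch-induced and early response transcripts, low in ski2-3, were higher in 8 of 14 cases in ein5-1 ski2-3 than in ein5-1, with ORA47 at 2.68 and RRTF1 at 2.00. Of the 279 ribosomal protein genes, 78 were called lower in the ein5-1 background and none higher, with a median of -0.81, against 17 and a median of -0.15 in ski2-3. No difference between the 2 pairs was tested, since each pair has 1 library per side.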

How the data were processed

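Counts were computed by the authors and deposited as whole numbers per gene in 1 column per library; RPKM values were deposited beside them, per the file headers. BWA and the TAIR9 build are named in the submitters' processing notes; the counting method and use of strand are not given in the sources used here. Genes with an empty cell in a library were given 0 reads there. The authors' deposited log2 ratios equal the ratio of their RPKM values (25788 ratios, largest difference 1.69e-07) and were not used further, nor were their p-values.

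Nuclear genes were scaled with the trimmed mean of M-values in numpy 2.4.6 (trims of 0.3 and 0.05), with a pseudocount of 0.5. The 4 rRNA and 623 tRNA genes were then left out. Intervals are exact 95% conditional binomial intervals (scipy 1.17.1) and, like floors of 3 reads, cover counting error only, since PCR reads carry no molecular identifiers. The procedure was tested on simulated data. Names, gene classes and neighbours came from the RefSeq TAIR10.1 gene table, which matched 32835 nuclear identifiers; its coordinates were used only for gene order and overlap. Of 535 list entries, 11 were dropped because their identifier was not in the gene table or did not go with the symbol.

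The genes named are the 15 highest and 15 lowest ratios, the 10 furthest from the nearest library with wild-type SKI2 in each direction, the targeted genes and members of lists and families. Members and lists were chosen with earlier results of these data known. Alternatives were other scalings, the authors' RPKM values, other read minimums and a larger pseudocount.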

Additional observations from a re-analysis of the deposited data

Results flagged for a closer look

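Of the 450 genes called in ski2-3, 54 took the opposite direction in the ein5-1 background, past 2-fold both times and with at least 100 reads in each pair. Of these, 39 were higher in ski2-3 than in Col-0 and 15 were lower. With no read minimum in the ein5-1 pair, 50 of the 304 higher genes were opposite and 35 went the same way. Of the 146 lower genes, 16 were opposite and 26 went the same way. Over all 12520 measured genes, 4.14% were higher and 6.69% lower in that pair. Of the 54 opposite genes, 26 belong to the lists, families or groups described, or to the extreme ratios. They are given here by their log2 ratio of ein5-1 ski2-3 to ein5-1.

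In this pair 24 of them were lower. Among defence genes the ratio was -2.61 for PDF1.2c, -2.28 for PDF1.2, -2.01 for CYP71A13, -1.66 for the berberine bridge enzyme-like AT1G26390, -1.28 for VSP1, -1.27 for AT2G43590, -1.11 for CYP82C2 and -1.07 for PAD3. Among cell wall and surface genes it was -1.71 for FLA13, -1.67 for CER1, -1.57 for AGP18, -1.53 for AT2G45220, -1.48 for AT4G16980, -1.08 for AT2G18150 and -1.02 for ATPMEPCRB. The transporters ABCG40 and CHX17 stood at -3.13 and -1.14. The remaining genes were CYP71B22 at -2.68, PYL6 at -1.96, MES18 at -1.75, AT4G12490 at -1.51, BAM5 at -1.33, U12 at -1.09 and ERF53 at -1.05.

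The other 2, lower in ski2-3, were higher in ein5-1 ski2-3 than in ein5-1, ORA47 at 2.68 and RRTF1 at 2.00. The difference between the pairs was not tested, since each pair has 1 library per side.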

How the results depend on the processing

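The count of higher genes was 304, and it was 535 with total nuclear counts, 179 with those totals without rRNA, 201 with the authors' RPKM values, and 517, 168 and 3256 with minimums of 30, 300 and 1 reads. The 146 lower genes became 90 with total nuclear counts and 233 without rRNA, and 330, 60 and 2457 with the 3 read minimums. The share of higher genes among those called, 67.6%, was 85.6% with total nuclear counts, 43.4% without rRNA, 49.8% with organelle reads, 48.9% with RPKM values, and 61.0%, 73.7% and 57.0% with the 3 minimums. The 108 genes above all 3 libraries with wild-type SKI2 became 137 with total nuclear counts, 80 without rRNA, 74 with organelle reads and 75 with RPKM values. They became 163, 64 and 825 with the 3 minimums and 98 with a pseudocount of 5. The 7 below all 3 became 11 with total nuclear counts, 16 without rRNA, 27 with organelle reads, 26 with RPKM values, 46, 2 and 630 with the 3 minimums, and 3 with a pseudocount of 5. Leaving out rdr6-11, an alternative chosen after seeing the data, gave 127 and 7, the 7 being partly other genes. For the 42 genes with extreme ratios or targeted by the mutations, 362 of 378 ratios stayed within their counting interval and none of those past 2-fold changed sign. The 3 read minimums leave a gene's ratio as it is, so 42 ratios for each minimum were bound to stay. Other scalings moved the median of all genes only to between -0.09 and 0.22, so they could not reverse a ratio past 2-fold. Of 867 medians of gene groups, 463 moved by over 0.1 or changed sign, and of 1716 counts of called members 234 moved by over 1.5 times. Minimums change how many low-count genes are counted; the causes of the other changes were not tested. No paired analysis was possible because each genotype has 1 library and the labels carry no replicate numbers.

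With 1 library per genotype, plant-to-plant spread is unknown, and depth limits the low-count genes most: the interval of HAK5 spans 2.22 to 3.77.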
